A study of Mus musculus with 2 samples.

Results

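The inflammatory genes described here are 10 genes that fibroblasts are known to induce when the transcription factor NF-kB is activated: the chemokine genes Ccl2, Ccl7, Cxcl1, Cxcl12 and Cx3cl1, the cytokine genes Il6, Csf1 and Csf3, and Ptgs2 and Tnfaip2. They were found as all probe sets that the platform annotation of the Affymetrix MG_U74Av2 array gives exactly 1 gene symbol, that symbol being one of the 10. This gave 14 probe sets of the 12488 on the array, for 10 of the 8251 genes named in this way. Cxcl12 had 3 probe sets, Cxcl1 and Cx3cl1 had 2 each, and the other 7 genes had 1 each.

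The samples were total RNA of 3T3 cells, fibroblasts of mouse embryos that grow without limit in culture, in serum-free DMEM. In the fibronectin group the cells had been plated for 30 min on 10 µg/ml fibronectin, a matrix glycoprotein that cells bind through integrins, and the labels give the expression of MAPK pathway genes as the reason for this sample. In the suspension group the cells were kept unattached. Each group had 1 array, so the differences below have neither a replicate nor a test, and "higher" or "lower" is said of these 2 arrays alone. No source used here gives the length of the time in suspension.

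NF-kB is held in the cytoplasm by inhibitors of the IkB family until receptors for TNF, IL-1 or microbial products activate a kinase that marks the inhibitor for destruction. The freed factor enters the nucleus and switches on genes whose products recruit leukocytes, prolong their life or make prostaglandins. Several of these genes were first found in 3T3 cells, where serum and platelet-derived growth factor induce them within an hour: Ccl2 was named JE, Cxcl1 was named KC and Ptgs2 was named TIS10. Chemokines are small secreted proteins grouped by the spacing of their first cysteines into CC, CXC and CX3C forms, and they act on G protein-coupled receptors of leukocytes.

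The promoters were searched for 1 form of the NF-kB site near the start of each gene, and other forms were not searched. RefSeq promoter sequences of the build GRCm38.p6 were held for 7 of the 10 genes, and Ccl2, Ccl7 and Csf3 had none. In the 250 bases before the start, the kB motif, taken as GGGA, any 1 base and TTTCC and searched on both strands, was present in Cxcl1, Il6 and Csf1, and in 0.356% of all 32851 promoters of that table. The stretches around these sites are printed with the motif in capitals, because they set a gene that was bright in both arrays beside a gene near background. They lie at chr5:90891144-90891213 on the plus strand for Cxcl1, chr5:30013040-30013109 on the plus strand for Il6 and chr3:107760584-107760653 on the minus strand for Csf1, where the motif reads on the opposite strand.
Cxcl1: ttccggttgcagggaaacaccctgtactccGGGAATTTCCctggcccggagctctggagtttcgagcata
Il6: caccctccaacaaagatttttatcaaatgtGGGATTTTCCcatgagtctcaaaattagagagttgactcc
Csf1: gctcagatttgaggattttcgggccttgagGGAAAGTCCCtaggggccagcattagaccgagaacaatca

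Counted from the start, the motif covered positions -71 to -62 in Cxcl1, -44 to -35 in Il6 and -154 to -145 in Csf1. In the same 250 bases, the AP-1 motif TGANTCA was found in Il6 alone of the 7 genes and in 6.75% of all promoters. The core ACGTCA of the cyclic AMP response element was found in Il6 and Cxcl1 and in 6.47% of all promoters. It is shown for Il6, at chr5:30012948-30013013 on the plus strand, with the core in capitals.
Il6: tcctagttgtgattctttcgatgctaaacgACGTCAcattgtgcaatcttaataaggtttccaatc

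None of the 3 motifs was found in the windows of Cxcl12, Cx3cl1, Ptgs2 or Tnfaip2, which says only that these letters are not in those 250 bases. The motif matches are a description of the sequence, and binding was not measured.

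The 10 genes fell into those with a clear signal and those near background. Background was read from 30 negative control probe sets on each array, which target bacterial transcripts or antisense strands. Their signals ran from 26.3 to 2528 with a median of 292 on the fibronectin array and from 61.5 to 1451 with a median of 459 on the suspension array. All signals are in MAS5 units after both arrays were scaled to the same 2% trimmed mean. Ccl2, Ccl7, Cxcl1, Cxcl12, Cx3cl1 and Csf1 exceeded the highest negative control in both arrays with their brightest probe set. Il6, Csf3, Ptgs2 and Tnfaip2 did not exceed it in either array.

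**Figure D1:**
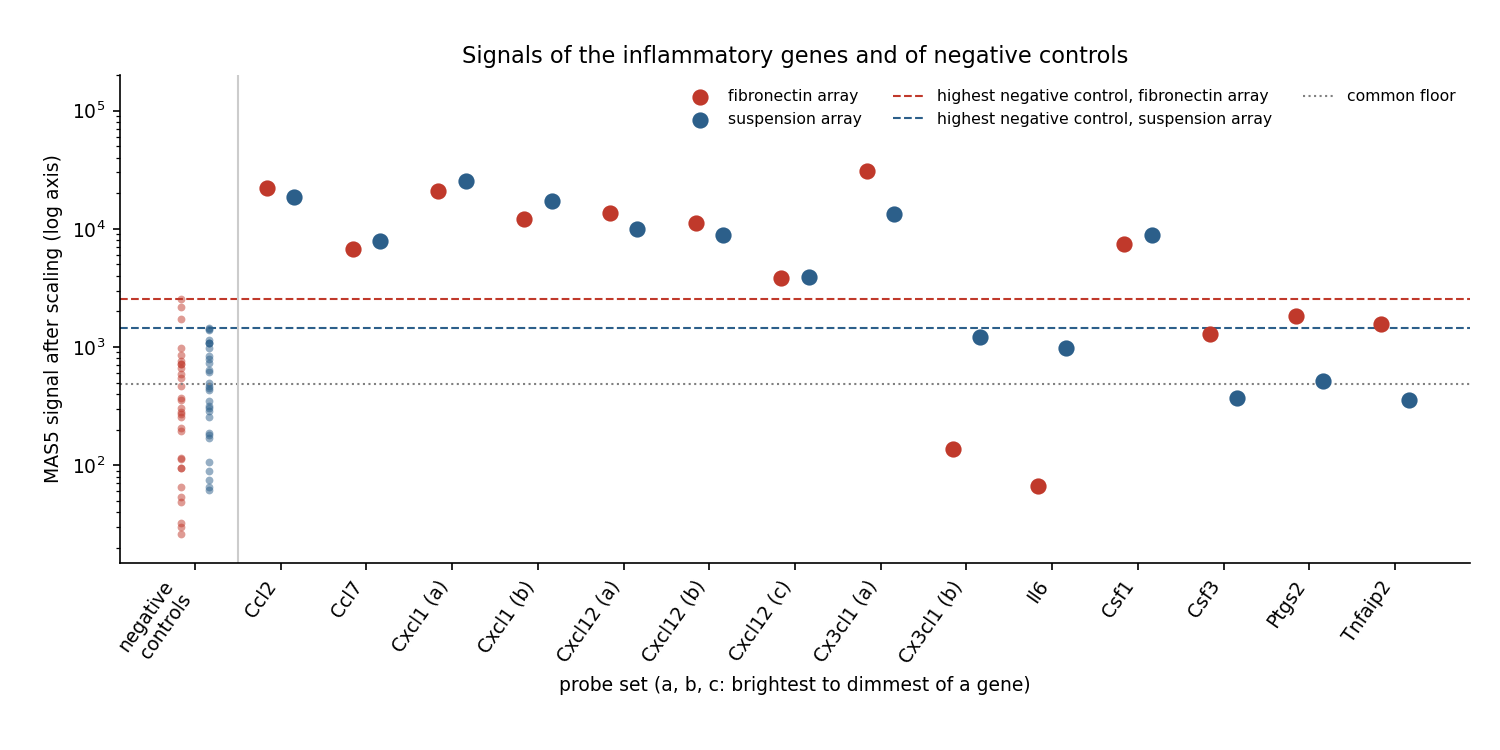
Scaled MAS5 signal (log axis) of each of the 14 probe sets in the fibronectin array (red) and the suspension array (blue), with the 30 negative controls of each array at the left. Dashed lines mark the highest negative control, 2528 on fibronectin and 1451 in suspension, and the dotted line the common floor of 490; 9 probe sets lie above the dashed line of their array in both arrays and 5 lie below it in both.

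Low signals were raised to a common floor of 490 before the log2 ratio of fibronectin to suspension was taken, and where only 1 array reached that floor the ratio is a lower limit, given with the words "at least". The direction of such a ratio was fixed by which array reached the floor. All 10 genes reached the floor in 1 array or both and are called measured. For scale, the log2 ratios of the 2 brightest probe sets of the same gene differed with an SD per ratio of 0.41 over 147 genes whose probe sets were above the highest negative control in both arrays. This SD was 0.68 over 378 genes whose measured probe sets exceeded it in neither array. It covers disagreement between probe sets on these arrays and not the spread between cultures.

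Of the 10 genes, 4 passed 2-fold upward on fibronectin and 0 passed it downward, against 5.81% of the 6385 measured genes higher and 9.27% lower. The 4 were Ptgs2, Tnfaip2, Csf3 and Cx3cl1. Tnfaip2 and Csf3 reached the floor only on fibronectin, so they had to come out higher there, and Ptgs2 was barely above the floor in suspension. The median log2 ratio of the 10 genes was 0.35, and that of all measured genes was -0.09. Among the 1744 genes above the highest negative control in both arrays, 4.82% passed 2-fold upward and 0.631% downward, with a median of 0.15. The highest control was lower in suspension, so that limit admits dimmer signals there. Of the 6 clear genes, 1 passed 2-fold upward and 0 downward, and their median was 0.03. As the RNA came from whole cultures, fewer cells with a transcript and less of it per cell cannot be told apart.

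**Figure D2:**
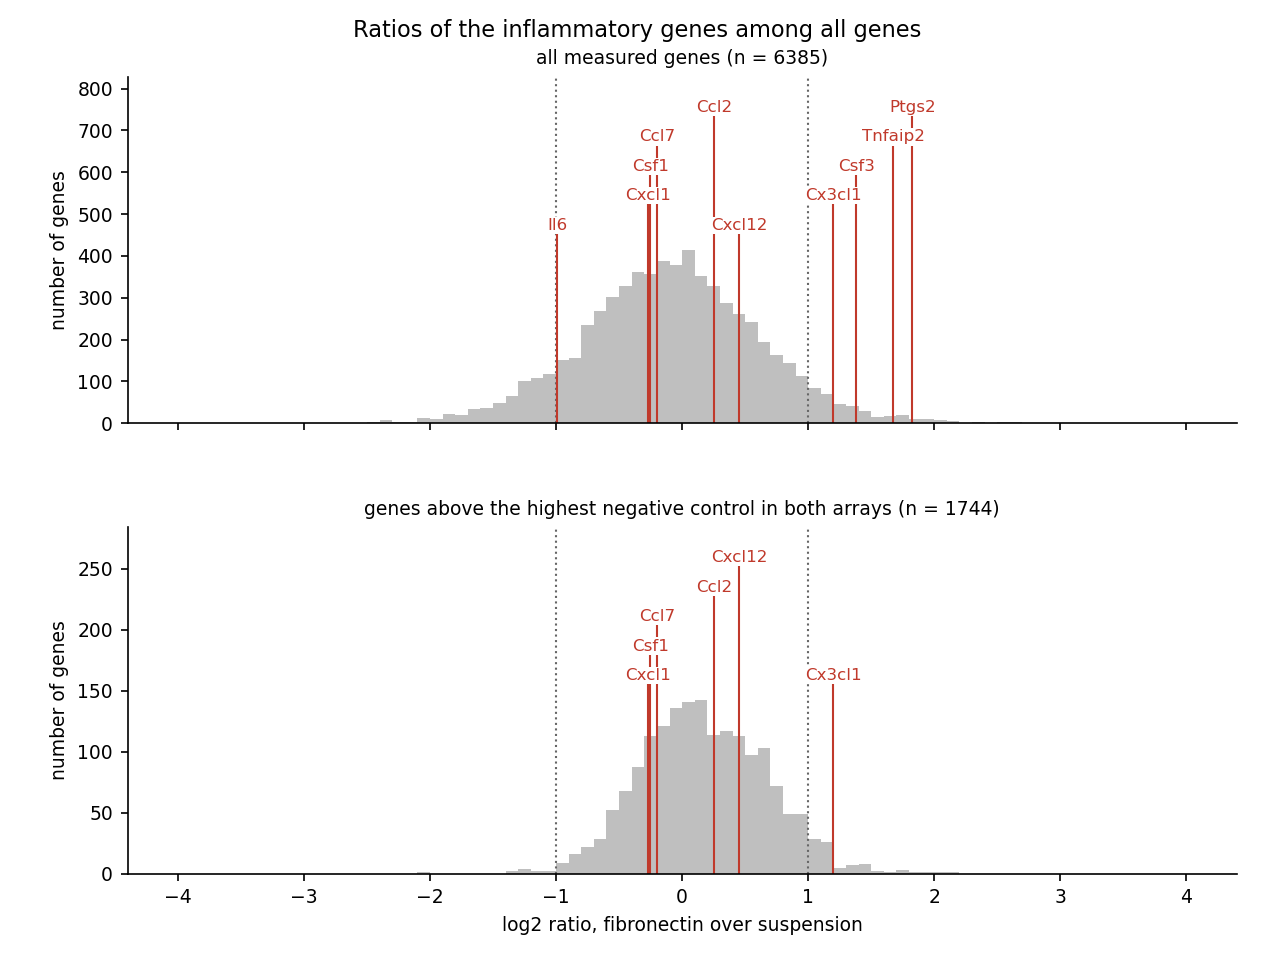
Histograms of the log2 ratio of fibronectin to suspension over the 6385 measured genes (top) and the 1744 genes above the highest negative control in both arrays (bottom), with red lines for the inflammatory genes and dotted lines at 2-fold. Ptgs2, Tnfaip2, Csf3 and Cx3cl1 lie to the right of the 2-fold line at the top, and Cx3cl1 alone of the 6 clear genes does so at the bottom.

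The CC chemokine genes were bright in both conditions and differed little. Ccl2, which attracts monocytes through Ccr2, had a signal of 22161 on fibronectin and 18611 in suspension, a log2 ratio of 0.25. Ccl7, a monocyte chemoattractant that several CC receptors recognise, had 6798 on fibronectin and 7813 in suspension, a log2 ratio of -0.20. Both differences are smaller than the SD of 0.41 between probe sets, and they have opposite signs.

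Ccl2 and Ccl7 are neighbours on chromosome 11, followed by the chemokine genes Ccl11, Ccl12, Ccl8 and Ccl1. Ccl11, an eosinophil attractant, and Ccl12 stayed below the floor in both arrays. Ccl8 had a signal of 540 on fibronectin and 1180 in suspension, 2.19-fold lower but within the negative controls of both arrays. Ccl1 was at least 2.20-fold lower in 1 probe set and at least 1.66-fold higher in the other. The clear signal at this cluster thus belonged to Ccl2 and Ccl7 among the 6 genes.

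The CXC chemokine genes were bright too. Cxcl1, a neutrophil attractant that acts on Cxcr2, had 20845 on fibronectin and 25193 in suspension in its brightest probe set, a log2 ratio of -0.27. Its second probe set had 12017 on fibronectin and 17214 in suspension, a ratio of -0.52, so both probe sets were lower on fibronectin by less than 1.5-fold. The next gene on chromosome 5, Cxcl2, which acts on the same receptor, was within the negative controls, with 507 on fibronectin and 1046 in suspension.

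Cxcl12, the stromal chemokine that retains blood stem cells and lymphocytes through Cxcr4, had 13676 on fibronectin and 9978 in suspension, a log2 ratio of 0.45. Its second probe set had 11118 on fibronectin and 8850 in suspension, a ratio of 0.33. The third had 3810 on fibronectin and 3888 in suspension, a ratio of -0.03. The 2 brighter probe sets were thus higher on fibronectin by amounts close to the SD between probe sets, and the dimmest showed next to no difference.

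Cx3cl1 differed most among the clear genes, but its probe sets disagreed. It encodes fractalkine, a chemokine that can stay anchored in the membrane on a mucin stalk and bind leukocytes that carry Cx3cr1. The brightest probe set had 30523 on fibronectin and 13313 in suspension, 2.29-fold higher, a log2 ratio of 1.20. The second had 136 on fibronectin and 1213 in suspension, at least 2.48-fold lower, and both of these signals lay within the negative controls. This second probe set carries the suffix by which the maker marks sets chosen under relaxed rules for probes. Other probe sets described below carry the same suffix, among them the second ones of Lcn2, Tnfrsf1a and Zfp36l2. The mean of both Cx3cl1 ratios was -0.06, so the direction of Cx3cl1 depends on which probe set is read.

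Csf1 encodes the macrophage colony-stimulating factor, which keeps macrophages alive through Csf1r. It had 7493 on fibronectin and 8923 in suspension, a log2 ratio of -0.25, which is smaller than the SD between probe sets. Csf3 encodes the granulocyte colony-stimulating factor, which drives neutrophil production. It had 1276 on fibronectin and 367 in suspension, at least 2.61-fold higher, with 27 of the 30 negative controls below it on fibronectin and 13 of 30 in suspension. Il6 encodes interleukin 6, which acts through Il6ra and the shared subunit Il6st. It had 66.5 on fibronectin and 973 in suspension, at least 1.99-fold lower, with 6 of the 30 negative controls below it on fibronectin and 22 of 30 in suspension. Csf3 reached the floor only on fibronectin and Il6 only in suspension, which fixed their opposite directions. The cytokines thus had 1 clear gene with little difference and 2 genes inside the range of the negative controls.

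Ptgs2 was one of the 4 genes at least 2-fold higher. It encodes cyclooxygenase 2, the inducible enzyme that makes prostaglandin H2 from arachidonic acid. Its signal was 1818 on fibronectin and 513 in suspension, 3.55-fold higher, with 28 of the 30 negative controls below it on fibronectin and 17 of 30 in suspension. Tnfaip2, a gene first found as induced by TNF in endothelial cells and known for a role in membrane nanotubes between cells, had 1563 on fibronectin and 356 in suspension, at least 3.19-fold higher. On fibronectin 27 of the 30 negative controls lay below it, and 13 of 30 in suspension. Ptgs2, Tnfaip2 and Csf3 therefore share a position: near the top of the negative controls on fibronectin and near their middle in suspension.

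The ratios of these dim genes followed the floor. With the floor at the mean of both arrays' 95th percentile of negative controls, a signal of 1688, Csf3, Tnfaip2 and Il6 were not measured and Ptgs2 had a log2 ratio of 0.11. With a floor at the arrays' 60th percentile the log2 ratios were 0.79 for Ptgs2, 0.57 for Tnfaip2 and 0.28 for Csf3. The clear genes do not depend on the floor, but those with small ratios depend on the scaling. Ccl2 had a ratio of -0.22 and Cxcl12 of -0.02 when the arrays were scaled to the hybridisation spikes, and Ccl7 had 0.01 under median scaling. Cxcl1 and Csf1 stayed below 0 under all 10 alternatives run, with ratios from -0.75 to -0.07 and from -0.73 to -0.05.

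**Figure D3:**
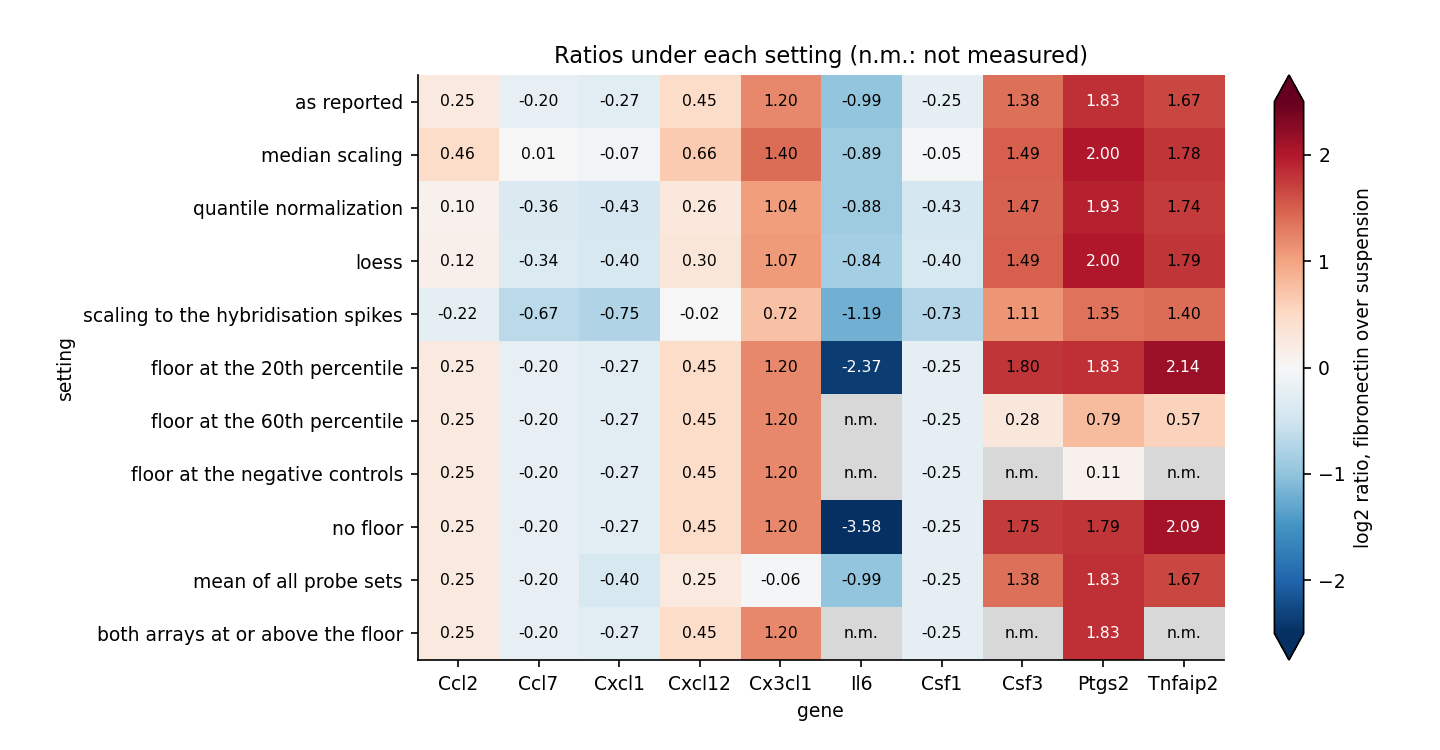
Log2 ratio of fibronectin to suspension for each of the 10 genes (columns) as reported and under each of the 10 alternatives (rows), with red for higher and blue for lower on fibronectin and grey for genes that were not measured. Ccl2, Ccl7, Cxcl1, Cxcl12 and Csf1 stay pale throughout, while Ptgs2 runs from 0.11 to 2.00 and Cx3cl1 from -0.06 to 1.40.

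The receptors through which these products act were mostly near background. Of 18 receptor genes on the array 12 were measured, with a median of -0.35. On fibronectin 2 passed 2-fold upward and 2 downward, against 5.81% of all measured genes higher and 9.27% lower. Both receptor chains of interleukin 6 were the higher ones. Il6st had 6347 on fibronectin and 2922 in suspension, 2.17-fold higher, and its second probe set was 2.42-fold higher with 3597 on fibronectin and 1486 in suspension. It exceeded the negative controls in both arrays with both probe sets and stayed above 0 under every scaling run, with its lowest ratio, 0.65, under scaling to the spikes. Il6ra was 2.15-fold higher, with 1229 on fibronectin and 571 in suspension, within the negative controls. The fractalkine receptor gene Cx3cr1 was 2.98-fold lower, with 533 on fibronectin and 1589 in suspension, and the scavenging chemokine receptor gene Ackr2 at least 2.33-fold lower.

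Among other chemokines the clear signals belonged to 2 genes. Of 20 on the array 14 were measured, with a median of -0.27. Of these, 0 passed 2-fold upward and 5 downward, against 5.81% of all measured genes higher and 9.27% lower. The downward count was 3 under median scaling, quantile normalization and loess. Cxcl5, a neutrophil attractant, had 48856 on fibronectin and 43892 in suspension (log2 ratio 0.15). Ccl5, which attracts T cells and monocytes, had 13773 on fibronectin and 15246 in suspension (log2 ratio -0.15). The direction of both changed with the scaling. The lower genes were Ccl22 (at least 4.24-fold), Ccl6 (at least 2.85-fold), Ccl8, Ccl1 and Cxcl2, whose fibronectin signals were all within the negative controls. Ccl22, Ccl6 and the brightest probe set of Ccl1 reached the floor only in suspension, so they had to come out lower. With both arrays required at the floor, 5 genes of the list were measured and 2 passed 2-fold downward. Ccl22 lies next to Cx3cl1 on chromosome 8 and had 357 on fibronectin and 2075 in suspension.

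Other cytokine genes were likewise dim. Of 30 on the array 16 did not reach the floor in either array, among them Il1a, Il1b, Il11 and Csf2, which fibroblasts can also induce. Of the 14 measured, 0 passed 2-fold upward and 2 downward, against 5.81% of all measured genes higher and 9.27% lower. The 2 were Il3 (at least 2.28-fold) and the interleukin 1 antagonist Il1rn (2.25-fold), and the median of the list was -0.49. Ctf1, or cardiotrophin 1, had 1165 on fibronectin and 2327 in suspension, just short of 2-fold lower. Il16, which encodes a T cell attractant, had 711 on fibronectin and 1382 in suspension, 1.94-fold lower. Tnf, which activates NF-kB, had 806 on fibronectin and 251 in suspension, within the negative controls. Kitl, the stem cell factor, was the 1 gene of this list above them in both arrays, with 3437 on fibronectin and 2774 in suspension. Of 6 measured prostanoid enzymes beside Ptgs2, Ptges, which turns its product into prostaglandin E2, was at least 2.19-fold lower and Ptges2 at least 1.60-fold higher, both within the negative controls. Ptgds, a prostaglandin D2 synthase, was above the highest negative control in both arrays in its brightest probe set, with 3480 on fibronectin and 4215 in suspension (log2 ratio -0.28). Its other 2 probe sets were within the negative controls and of opposite direction. The thromboxane synthase gene Tbxas1 had 1180 on fibronectin and 1672 in suspension, above the highest negative control in suspension only. The median of that list was -0.37. Pla2g4a, the phospholipase that releases arachidonic acid, had 1292 on fibronectin and 1426 in suspension.

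Components of the NF-kB pathway were more often clear. Of 24 on the array 19 were measured, with a median of 0.19. Of these, 2 passed 2-fold upward and 0 downward, against 5.81% of all measured genes higher and 9.27% lower. The higher ones encode proteins of the IkB family. Nfkbiz (2.07-fold) had 4073 on fibronectin and 1965 in suspension. Nfkbib (2.05-fold) had 2648 on fibronectin and 1292 in suspension, the latter within the negative controls. With the hybridisation spikes the log2 ratios were 0.58 for Nfkbiz and 0.56 for Nfkbib. Under that scaling 0 genes of the list passed 2-fold upward and 3 downward. The second probe set of Nfkbiz was at least 1.18-fold higher. Nfkbia, the IkB gene that NF-kB itself induces, had 9178 on fibronectin and 13644 in suspension (log2 ratio -0.57), while its second probe set had 3167 on fibronectin and 2921 in suspension (log2 ratio 0.12). The subunit gene Rela had 11002 on fibronectin and 7665 in suspension (log2 ratio 0.52). Tnfaip3, another feedback inhibitor that NF-kB induces, did not reach the floor in either array. The kinase gene Map3k7 was at least 1.82-fold lower and the adaptor gene Traf5 1.69-fold higher.

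Of the 7 receptors upstream of the pathway that were on the array, 5 were measured, with a median of 0.48. Of these, 1 passed 2-fold upward and 0 downward, against 5.81% of all measured genes higher and 9.27% lower. Tnfrsf1a had a log2 ratio of 0.48 in its brightest probe set. Its second was 3.17-fold lower, with 791 on fibronectin, within the negative controls, and 2507 in suspension. Il17ra had 0.01 in its brightest probe set and was at least 3.25-fold higher in the other. That other probe set had 1591 on fibronectin and 432 in suspension, within the negative controls. It reached the floor only on fibronectin, which fixed its direction. With the mean of all probe sets 3 genes passed 1.5-fold upward and 1 downward. Ltbr, the lymphotoxin beta receptor, had 8897 on fibronectin and 4335 in suspension, 2.05-fold higher. Its log2 ratio was 1.04, against 0.90 after quantile normalization, 0.92 after loess and 0.56 with the hybridisation spikes, so that no gene of the list passed 2-fold upward under these 3 scalings. With the spikes the median of the list was 0.01. Il1r1, the interleukin 1 receptor, had 3786 on fibronectin and 2222 in suspension, 1.70-fold higher.

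Other NF-kB targets went both ways. Of 24 on the array 20 were measured, 8 passed 1.5-fold upward on fibronectin and 4 downward, against 15.9% of all measured genes higher and 22.6% lower, with a median of 0.08. With the hybridisation spikes the counts were 3 upward and 7 downward, with a median of -0.43. The largest ratios were those of the proteases Mmp9 (3.73-fold, with -0.48 in its second probe set) and Mmp13 (3.01-fold) and the hyaluronan receptor Cd44 (2.85-fold, and at least 1.08-fold lower in another probe set), each with a suspension signal within the negative controls. The complement gene Cfb was 1.85-fold lower, within the negative controls of both arrays.

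Of the clear targets, the lipocalin gene Lcn2 had 11146 on fibronectin and 6260 in suspension, 1.78-fold higher. Its second probe set was 1.94-fold lower, with a fibronectin signal of 1278 that was within the negative controls. The adhesion molecule gene Vcam1 had 4319 on fibronectin and 2857 in suspension in its brightest probe set, 1.51-fold higher. The log2 ratio of this probe set was 0.12 with the hybridisation spikes. Its other probe sets were 2.10-fold and 1.86-fold higher, within the negative controls of both arrays. The stress gene Gadd45b had log2 ratios of 0.69 and -0.07 in its probe sets, and the transcription factor gene Irf1 was 1.51-fold lower, with 3348 on fibronectin and 5039 in suspension. The acute phase gene Saa3 had 20192 on fibronectin and 20798 in suspension.

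**Figure D4:**
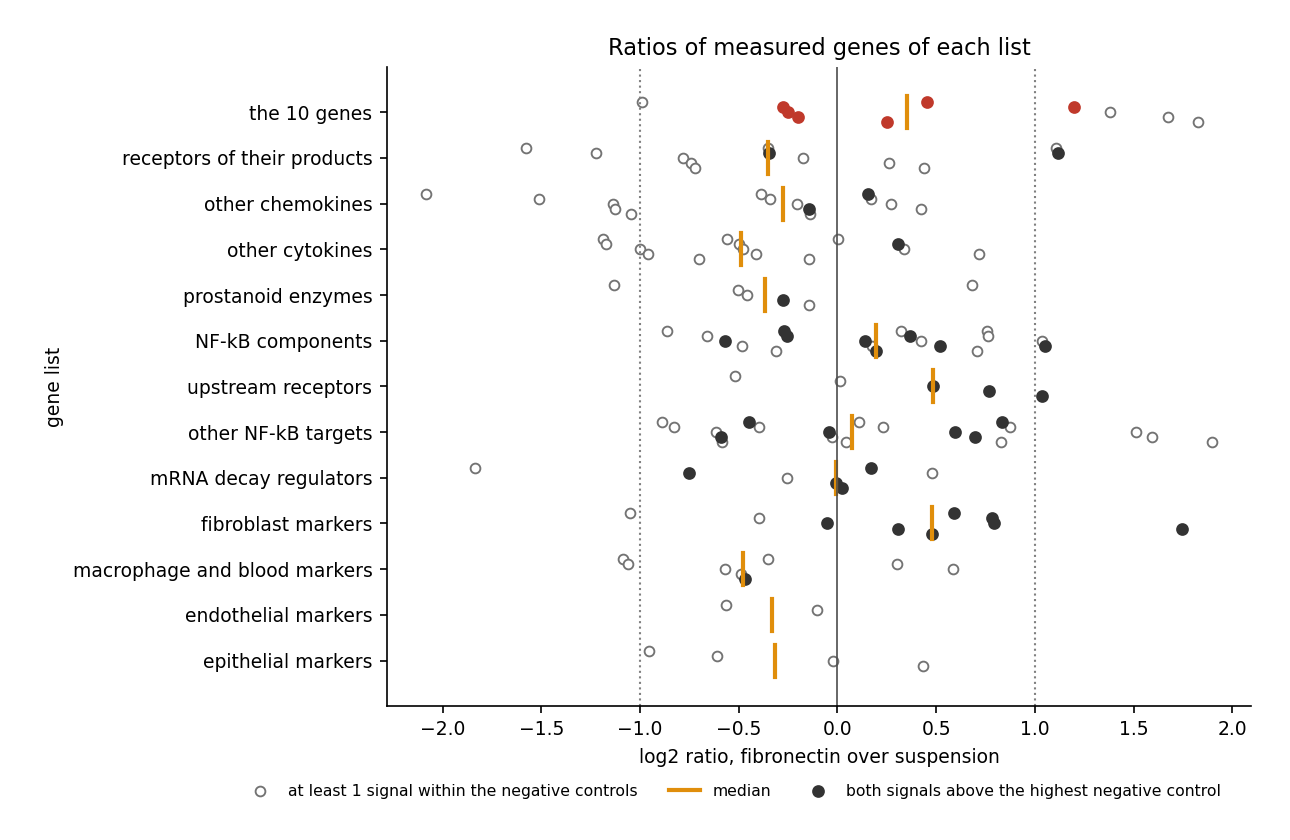
Log2 ratio of fibronectin to suspension of every measured gene of each list (1 point a gene, orange bar the median), filled where both signals exceed the highest negative control of their array. The 10 genes have a median of 0.35, and 6 of them are filled, of which Cx3cl1 alone lies beyond the dotted 2-fold line.

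Some proteins that bind AU-rich elements shorten the life of cytokine and Ptgs2 transcripts. The gene of the best known of these proteins was lower on fibronectin. Zfp36, or tristetraprolin, had 1996 on fibronectin and 7134 in suspension, 3.57-fold lower. Its fibronectin signal lay within the negative controls, with 28 of the 30 below it. The related gene Zfp36l1 had 4796 on fibronectin and 8070 in suspension, 1.68-fold lower. Both stayed below 0 under every scaling run. The probe sets of Zfp36l2 differed: the brightest had 26466 on fibronectin and 26067 in suspension, another had 6593 on fibronectin and 2007 in suspension (3.29-fold higher, above the highest negative control in both arrays), and the last had 2467 on fibronectin and 128 in suspension (at least 5.04-fold higher). Elavl1, which stabilises such transcripts, had 3586 on fibronectin and 3609 in suspension. Of the 7 genes of this list, 0 passed 2-fold upward and 1 downward, against 5.81% of all measured genes higher and 9.27% lower. The median of the list was -0.01. With the mean of all probe sets 1 passed upward and 1 downward.

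The cell type labelled was checked against markers. Of 10 fibroblast markers on the array 7 exceeded the negative controls in both arrays, among them Col1a1, Col1a2, Col3a1, Fn1 and Sparc, while Thy1 did not reach the floor and Vim lay within the negative controls. Of the 9 measured, 4 were at least 1.5-fold higher and 1 lower, against 15.9% of all measured genes higher and 22.6% lower. The lower one was Vim, with 686 on fibronectin and 1421 in suspension, 2.07-fold lower. The median was 0.48, or 0.01 with the hybridisation spikes. Pdgfrb, a growth factor receptor of fibroblasts, had 7795 on fibronectin and 2326 in suspension, 3.35-fold higher. The summed signal of the fibroblast list was 201211 on fibronectin and 132948 in suspension. Of 15 macrophage and blood markers 8 were measured. Of these, 0 passed 2-fold upward and 2 downward, against 5.81% of all measured genes higher and 9.27% lower. The 2 were Fcgr1 (2.13-fold, with 719 on fibronectin and 1528 in suspension) and Mpeg1 (at least 2.08-fold). Fcgr1 and Csf1r exceeded the highest negative control in suspension only. Ptprc, Adgre1, Itgam, Lyz2, Aif1 and Tyrobp were among the 7 that did not reach the floor in either array. Cd14 alone was above the negative controls in both, with 3857 on fibronectin and 5342 in suspension, and the summed signal of the list was 11275 on fibronectin and 14766 in suspension, with a median log2 ratio of -0.48. The part of these markers in the ratios of the 10 genes was not tested. No endothelial or epithelial marker of the 10 on the array exceeded the negative controls in both.

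The arrays also differed in technical measures. The 3′ to 5′ signal ratio, which rises as RNA is degraded, was 1.19 on fibronectin and 1.79 in suspension for beta-actin, and 0.841 on fibronectin and 1.47 in suspension for Gapdh. All 9 hybridisation spikes were brighter on the fibronectin array, by a median of 0.47 on the log2 scale. Of 32 settings recorded for both arrays 4 differed: chip lot, operator, fluidics module and scan date. The part of these measures in the ratios above was not tested, and with 1 array per condition these settings cannot be told apart from the condition.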

How the data were processed

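The authors deposited linear intensities with 1 signal for each probe set, and the submitters' processing notes name MAS5. The sources used here give neither the MAS5 version nor its scaling target, and detection calls were not used. The 2 other deposited files hold text settings of the instruments, an Affymetrix experiment information record per the file headers, and no score or expression value.

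The 2% trimmed means of the arrays, without control probe sets, were set equal (factors 1.00 on fibronectin and 0.999 in suspension). The floor averaged the 40th percentiles of the arrays. A gene was read from its probe set of highest mean log2 signal. Of 12488 probe sets, 10855 had 1 gene symbol, 396 several and 1237 none, and the gene IDs of all 10 genes matched the RefSeq gene table of GRCm38.p6, which also gave their neighbours. Coordinates are given only for promoters of that table, since no source used here names the build of the probe sets.

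With 1 array per group no test was run, and the number of arrays limits the precision. The genes and lists were chosen with earlier results of these data known. All 10 genes are named. From each list other than the cell type markers, up to 4 genes with the largest absolute ratio of at least 1.5-fold are named. So is any such gene above the highest negative control in both arrays. Further genes are named for their level or for probe sets that disagree. The alternatives were other scalings (median, quantile, loess, hybridisation spikes), other floors (20th and 60th percentile, negative controls, none with a pseudocount of 16), the mean over probe sets, and both arrays at the floor. The ratio calculation was tested on simulated data. Computations used Python 3.11.15, numpy 2.4.6, pandas 2.3.3 and statsmodels 0.14.6.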

Additional observations from a re-analysis of the deposited data

How the results depend on the processing

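Of 143 values recomputed under the 10 alternatives for the ratios, median and counts reported, 117 moved by less than the spread between probe sets (0.69 on the log2 scale over all measured genes) or by less than 1.5 times for a count, and 25 moved further. That spread exceeds the reported ratios of Ccl2, Ccl7, Cxcl1, Cxcl12 and Csf1 and the median of the 10 genes. A change of sign in these values therefore still counts among the 117, which says little about their direction. Ccl2 (-0.22), Cxcl12 (-0.02) and the median changed sign in this way with the spikes, and Ccl7 (0.01) under median scaling. The direction of Cx3cl1 reversed to a log2 ratio of -0.055 with the mean of all probe sets. Under the floor at the 20th percentile Il6 had -2.37 and counted as the 1 gene of the 10 at least 2-fold lower, and with no floor it had -3.58 and also made that count 1. Scaling to the spikes gave 1 lower gene too, and a median of the 10 genes of -0.12, with the median of all genes shifted by -0.43 and the median of the NF-kB components at -0.28; median scaling shifted that of all genes by 0.19. Under the floor at the 60th percentile Csf3 had 0.28, Ptgs2 0.79 and Tnfaip2 0.57, and 1 of the 10 genes was at least 2-fold higher. The floor at the negative controls left Ptgs2 at 0.11 and 1 higher gene, and requiring both arrays at the floor left 2. Csf3, Tnfaip2 and Il6 have no value under these last 2 alternatives, nor Il6 with the floor at the 60th percentile, because too few of their signals reach the floor.

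Of all measured genes, the numbers that passed 2-fold upward and downward on fibronectin were 596 and 405 under median scaling, 134 and 1409 with the spikes, 818 and 1179 with the floor at the 20th percentile, 156 and 158 at the 60th percentile, 96 and 44 at the negative controls, 888 and 1458 with no floor, and 225 and 311 with both arrays at the floor, against 371 and 592 as reported. The share of higher among these genes was 38.5% as reported, 59.5% under median scaling, 51.0% after quantile normalization, 51.2% after loess and 8.68% with the spikes. No paired analysis was possible because each group has 1 array. Low signal limits Il6, Csf3, Ptgs2 and Tnfaip2, none of which exceeded the highest negative control in either array.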

Other observations

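Control probe sets of the array also target 4 immune genes of the mouse. Those for interleukin 2, 4 and 10 had signals of 90.5, 103 and 597 on fibronectin and of 677, 317 and 289 in suspension. The one for Fas had 1489 on fibronectin and 1255 in suspension. All of these signals were within the negative controls of their arrays. The 3 interleukins are known as products of lymphocytes and other leukocytes.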
